A study of Mus musculus with 12 samples.

Results

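The genes described here code for the assembly factors of the respiratory chain in the left ventricle of the mouse heart, 43 genes named by hand and divided by the complex they help to build: 14 for complex I, 4 for complex II, 6 for complex III, 16 for complex IV and 3 for complex V. All 43 had a row among the 18079 genes of the deposited expression table, and all 43 passed the filter that left 11664 genes for testing. RNA sequencing was performed on left ventricular muscle of 12 C57BL/6 mice in 4 groups of 3. Each group had undergone aortic banding (AB), which narrows the aorta and loads the left ventricle with pressure, or a sham operation, and had been injected intraperitoneally once a day with hispidulin, a plant flavonoid, at 20 mg/kg/day or with its solvent DMSO. The groups were DMSO+Sham, DMSO+AB, Hispidulin+Sham and Hispidulin+AB, operated on at 8 weeks of age, treated from 1 day before surgery and killed 4 weeks after it, at 12 weeks. The study asked whether hispidulin limits the hypertrophy that pressure overload brings on and what becomes of mitochondrial genes, and the comparisons below ask whether the mRNA of the factors that build the respiratory complexes differed between these groups.

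The respiratory chain of the mitochondrion is made of large complexes in the inner membrane that pass electrons to oxygen, pump protons and, in complex V, make ATP. Their subunits do not come together unaided: assembly factors insert heme, copper, flavin and iron-sulfur clusters, hold half-built modules and stabilize newly made subunits, and they are not part of the finished enzyme. The heart depends on this machinery for nearly all of its ATP, and inherited loss of several of these factors, such as Sco2, Surf1, Tmem70 and Acad9, is known to cause cardiomyopathy or mitochondrial encephalopathy in children.

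The letters just before the start of 4 of these genes are shown because the first 3, Cox19, Uqcc3 and Coa3, had the highest fold changes in banded hearts and the fourth, Cox10, carries the motif that was most common among the members. RefSeq's table of promoter windows for build GRCm38.p6, each running from 250 bases before the annotated start to 50 after it, held 37 of the 43 genes. Only the 250 bases before the start are printed, 5′ to 3′ on the gene's own strand, with any match to the 3 motifs searched in capitals.
Cox19, minus strand, chr5:139345167-139345416: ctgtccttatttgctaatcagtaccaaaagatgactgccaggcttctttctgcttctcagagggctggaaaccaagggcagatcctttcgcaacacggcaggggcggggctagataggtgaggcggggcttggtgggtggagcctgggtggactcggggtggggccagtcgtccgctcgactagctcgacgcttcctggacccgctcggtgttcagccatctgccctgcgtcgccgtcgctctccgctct
Uqcc3, minus strand, chr19:8880934-8881183: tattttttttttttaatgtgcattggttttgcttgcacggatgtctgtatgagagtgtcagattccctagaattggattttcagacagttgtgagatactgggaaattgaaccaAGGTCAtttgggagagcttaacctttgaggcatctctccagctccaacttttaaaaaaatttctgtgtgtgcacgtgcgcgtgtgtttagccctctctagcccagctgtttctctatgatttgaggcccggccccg
Coa3, minus strand, chr11:101278949-101279198: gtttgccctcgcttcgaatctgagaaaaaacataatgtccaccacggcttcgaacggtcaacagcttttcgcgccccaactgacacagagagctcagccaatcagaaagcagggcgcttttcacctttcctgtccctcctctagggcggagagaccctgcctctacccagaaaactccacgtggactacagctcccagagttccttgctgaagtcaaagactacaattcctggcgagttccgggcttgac
Cox10, minus strand, chr11:64079473-64079722: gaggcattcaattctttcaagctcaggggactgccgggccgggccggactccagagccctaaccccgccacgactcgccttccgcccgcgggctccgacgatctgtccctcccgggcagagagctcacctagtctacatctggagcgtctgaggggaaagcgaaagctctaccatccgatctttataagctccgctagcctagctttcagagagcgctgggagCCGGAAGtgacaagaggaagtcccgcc
The capitals in Cox10 mark CCGGAAG, the core bound by ETS factors such as Gabpa, a known regulator of respiratory chain genes, from 27 to 21 bases before the start. The capitals in Uqcc3 mark AGGTCA, the half-site of several nuclear receptors, and the Cox19 and Coa3 letters hold none of the 3 motifs. Over the whole 300-base windows and on both strands, the ETS core was in 15 of 37 members (40.5%) and in 15.6% of the 14118 genes of the table with a window. GCGCANGC, the core of the Nrf1 site, was in 8 members (21.6%, against 17.9% of those genes), and AGGTCA was in 4 (10.8%, against 16.3%). Matches of different motifs can share letters, and a match is only a match of letters.

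The hearts carried the RNA of the labelled tissue. The summed FPKM (a gene's fragments scaled to its length and to the size of the library) of 8 cardiomyocyte genes ranged from 34400 to 44100 over the 12 libraries, while 6 lymphocyte genes summed to at most 1.67. The 4 genes of the hypertrophy response, Nppa, Nppb, Myh7 and Acta1, summed to between 452 and 1060 in DMSO+Sham, 860 and 1570 in Hispidulin+Sham, 4310 and 16300 in DMSO+AB and 3820 and 6340 in Hispidulin+AB. The 8 fibroblast genes summed to between 346 and 448, 354 and 483, 406 and 987, and 407 and 656 in the same order of groups, and 3 of them rose in DMSO+AB over DMSO+Sham by the test below. In bulk tissue, fewer cells of a type and less RNA per cell cannot be told apart.

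The library DMSO+Sham 3 stood apart, for these genes and over all genes. Over all genes tested it held the highest of the 12 values for 22.1% (1.79% to 14.8% in the other hearts). For 1.85% of all genes it lay more than 1 from its group mean on the log2 scale (0.0857% to 0.712% in the other hearts). It held the lowest of the 12 values for 18 of the 43 members (41.9%), whereas it held the lowest value for 13.6% of all genes tested. Within its own group it was lowest for 28 members (65.1%, against 30.8% of all genes). In this library the members lay at a median of -0.18 on the log2 scale from each gene's mean over the 12 hearts, where all genes lay at a median of 0.05. Hispidulin+AB 3 was lowest of the 12 for 8 members (18.6%, against 5.66% of all genes) and lowest of its own group for 30 (69.8%, against 36.6% of all genes). Its members lay at a median of -0.09 from the mean over the 12 hearts, and all genes at -0.02. DMSO+Sham 2 lay the other way. It was highest of the 12 for 11 members, where it was highest for 10.3% of all genes. Within its own group it was lowest for 3 members (6.98%, against 36.9% of all genes). Its members lay at a median of 0.12 from the mean over the 12 hearts, and all genes at 0.01. Without DMSO+Sham 3 the DMSO+Sham side rests on this heart and DMSO+Sham 1. DMSO+Sham 3 also had the lowest cardiomyocyte sum (34400), the highest macrophage sum (176, against 76.7 to 144 elsewhere) and the lowest smooth muscle sum (42.4). Hispidulin+Sham 3 had the highest sum of 4 erythroid genes, which mark red blood cells (8320, against 1790 to 4080 elsewhere). It also had the highest sum of 3 atrial genes (774), and sums of 172 and 91 were found in DMSO+AB 2 and Hispidulin+AB 3, where the other libraries had at most 40. The part of these differences in the results was not tested. Many counts of signs and values of single factors are therefore also given without DMSO+Sham 3 or without Hispidulin+AB 3, a comparison chosen after the values were seen.

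**Figure D1:**
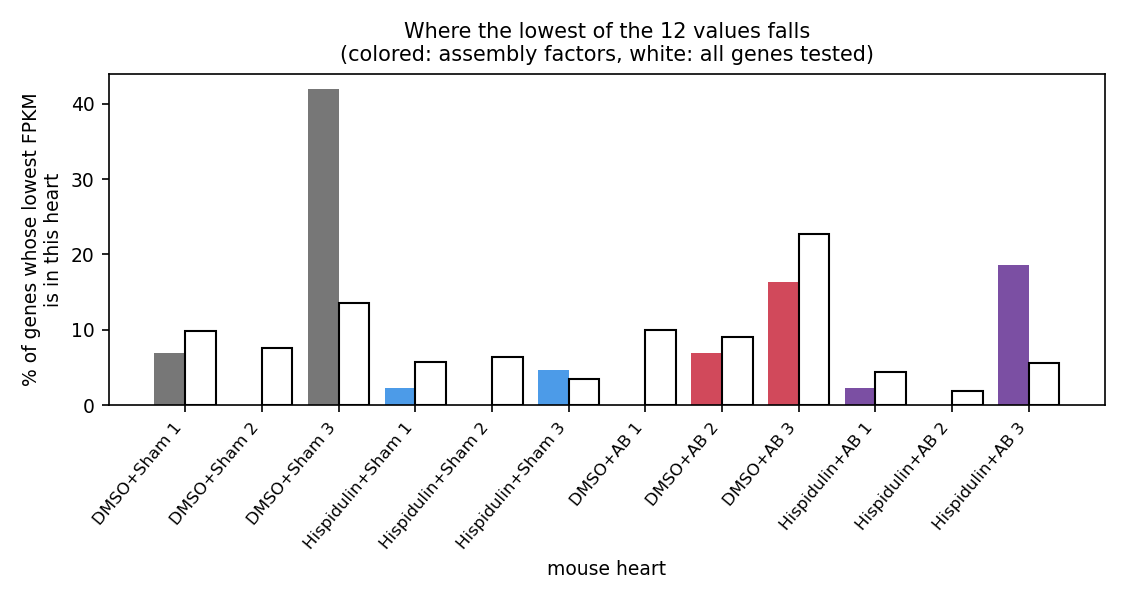
For each of the 12 mouse hearts, the bars give the percentage of genes whose lowest FPKM of the 12 fell in that heart, colored for the 43 assembly factors and white for all 11664 genes tested. DMSO+Sham 3 holds the lowest value of 41.9% of the factors and of 13.6% of all genes.

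The assembly factors were expressed at moderate levels that differed widely between genes. Mean FPKM over the 12 hearts ran from 4.73 for Coa7 to 259 for Cox17, with a median of 24.2, where the median of all genes tested was 8.68. Cox17, the cytosolic and intermembrane space copper carrier of complex IV, had 238.80, 263.12 and 247.42 in DMSO+Sham, 257.06, 255.18 and 253.67 in Hispidulin+Sham, 248.21, 286.13 and 250.03 in DMSO+AB, and 296.09, 270.39 and 243.51 in Hispidulin+AB. Its groups overlapped, and the Hispidulin+AB hearts alone spanned most of its range. Coa7, a heme-binding factor of complex IV, had 4.15, 6.30 and 3.41, then 4.22, 5.60 and 4.33, then 4.21, 5.11 and 5.34, and 4.59, 4.84 and 4.62 in the same order of groups. Here too the groups overlapped, and the DMSO+Sham hearts alone spanned the values of all the others.

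In DMSO+Sham hearts every factor lay below the median of the nuclear-encoded subunits of its own complex. The median FPKM was 21.5 for the factors and 535 for 37 subunits of complex I, 22.1 and 604 for 4 subunits of complex II, 27.7 and 863 for 9 subunits of complex III, 27.4 and 1530 for 14 subunits of complex IV, and 47.4 and 1290 for 18 subunits of complex V. The subunit medians were thus 24.9 to 56.1 times those of the factors. The ranges overlapped only in complex IV, where the factors reached 250 and the lowest subunit, Cox4i2, an isoform known mainly from lung, had 13.5. In complex V the lowest subunit, the inhibitor Atpif1, had 70.4 against a highest factor of 59.9, and in complex I the lowest, Ndufa11, had 99.2 against 71.3.

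**Figure D2:**
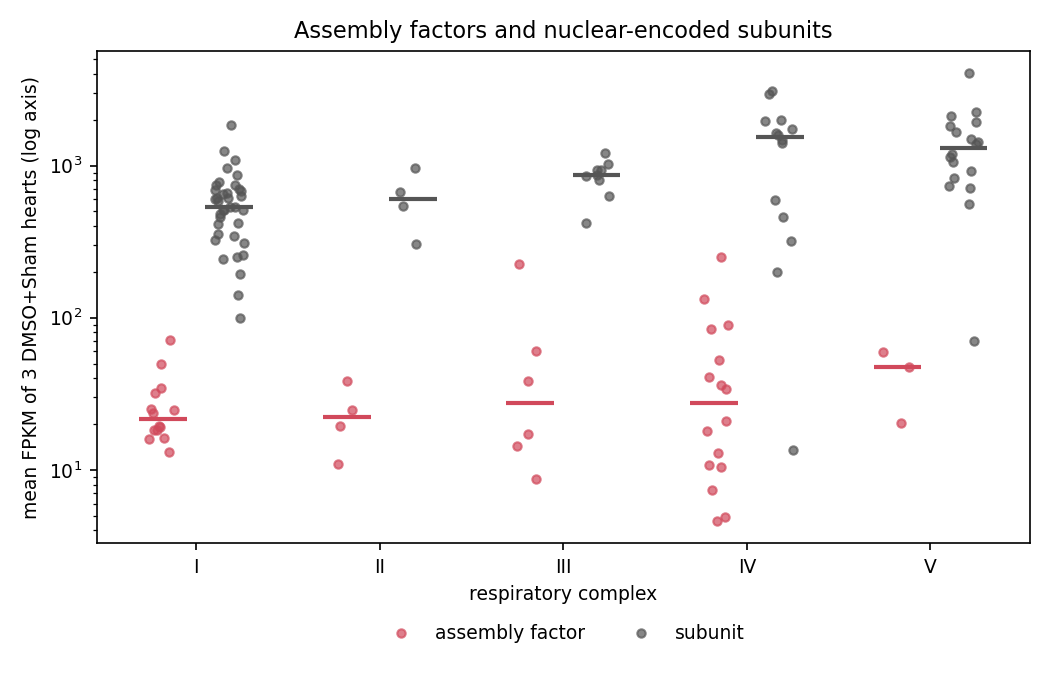
Mean FPKM of 3 DMSO+Sham hearts on a log axis for each assembly factor (red) and each nuclear-encoded subunit (grey) of complexes I to V, with a line at each median. The factor medians lie between 21.5 and 47.4 and the subunit medians between 535 and 1530.

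Banding of DMSO-treated mice changed 1 of the 43 assembly factors. Cox19 rose, no factor fell, and the other 42 did not pass an adjusted p of 0.05 in limma's moderated test on log2(FPKM + 1), with the p-values adjusted over all 11664 genes. In this comparison 5.21% of all genes passed, so 1 of 43 is no more than the background. The unadjusted p was under 0.05 for 4 members, Cox19, Coa3, Uqcc3 and Tmem126b, where 20.4% of all genes did so. By sign alone, 28 members were higher and 15 lower in DMSO+AB, with a median log2 fold change of 0.06 (-0.03 over all genes). Without DMSO+Sham 3 the split was 22 higher and 21 lower, with a median of 0.00. With each heart of these groups left out in turn, the median ran from 0.00 to 0.12. For 30 of the 43 members the 95% interval of the log2 fold change lay within 0.5 on either side of 0.

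Cox19 is a small cysteine-rich protein of the intermembrane space that keeps Cox11 able to hand copper to complex IV. Its FPKM was 35.07, 50.23 and 36.40 in DMSO+Sham, 46.95, 47.31 and 42.16 in Hispidulin+Sham, 55.73, 86.30 and 82.29 in DMSO+AB, and 58.22, 59.20 and 54.85 in Hispidulin+AB. All 3 DMSO+AB hearts lay above all 3 DMSO+Sham hearts, and all 6 banded hearts lay above all 6 sham hearts. The mean was 74.8 ± 16.6 (SD, n = 3) in DMSO+AB and 40.6 ± 8.40 (SD, n = 3) in DMSO+Sham, a log2 fold change of 0.86 with a standard error of 0.17 and a 95% interval of 0.49 to 1.22 (1.81-fold, limma adjusted p = 0.0181). The exact two-sided permutation test over these hearts gave p = 0.1, the smallest that 3 against 3 can give. Among all genes 2.15% had all 6 banded hearts above all 6 sham hearts and 2.8% had them all below. Cox19 was the only member above in this way and no member was below, a count made after the values were seen.

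The call for Cox19 depended on single hearts. Its log2 fold change without each DMSO+Sham or DMSO+AB heart in turn ran from 0.74 to 1.06, always higher in DMSO+AB, but the limma adjusted p was 0.0799 without DMSO+Sham 1, 0.0814 without DMSO+AB 2 and 0.0654 without DMSO+AB 3. Without DMSO+Sham 3 it remained called (log2 fold change 0.79, limma adjusted p = 0.0387). The lowest of the 3 DMSO+AB hearts, DMSO+AB 1, also had the lowest hypertrophy sum of that group (4310, against 12700 and 16300) and its lowest fibroblast sum (406, against 987 and 679). Whether these move with Cox19 for a common reason was not tested.

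**Figure D3:**
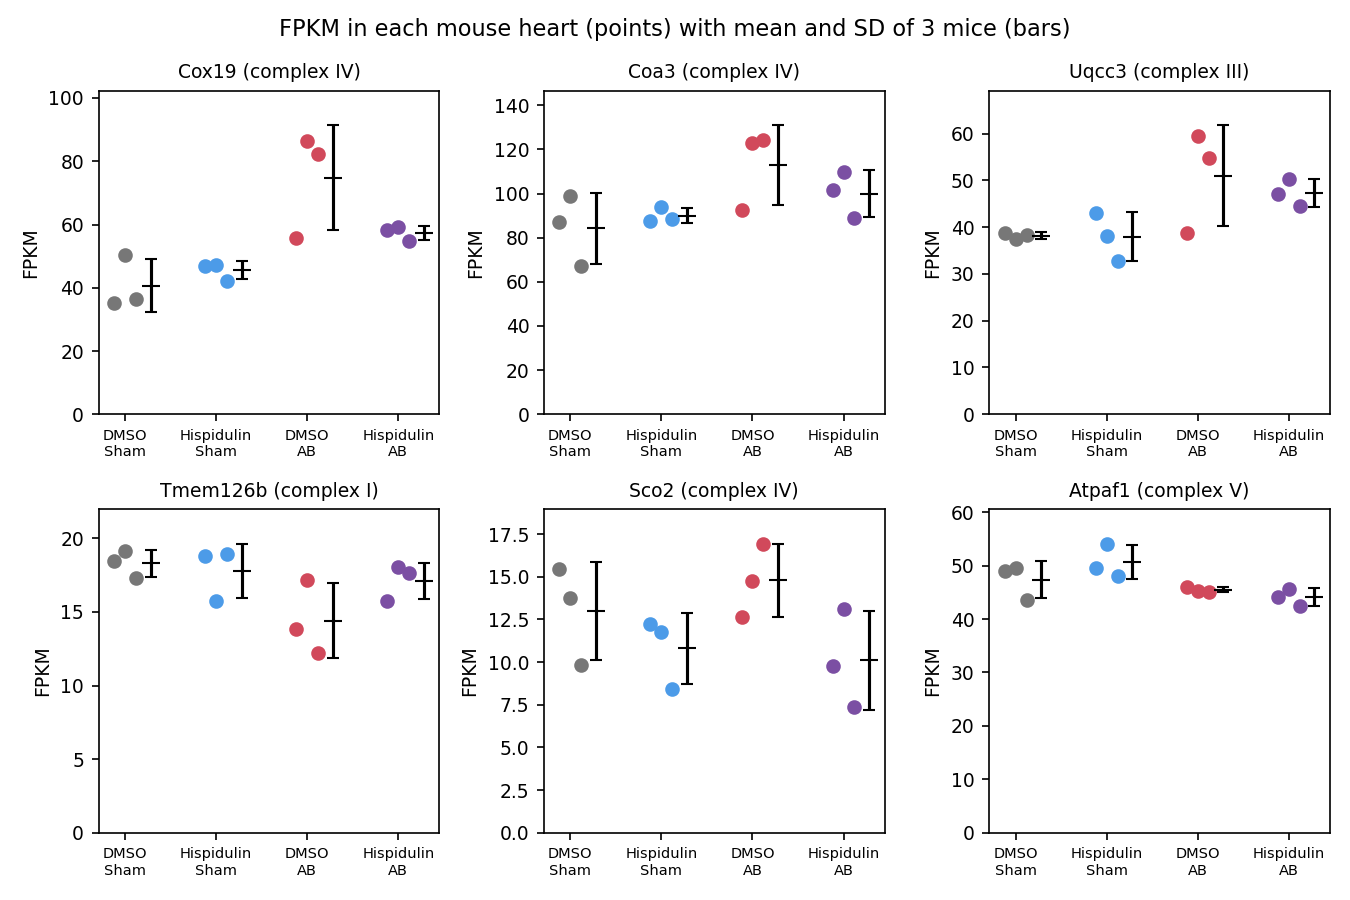
FPKM in each of the 12 hearts for 6 assembly factors with an unadjusted p under 0.05 in at least 1 comparison, as points colored by group, with the mean and SD of 3 hearts in black beside them and each vertical axis starting at 0. The 6 banded hearts of Cox19 lie between 54.85 and 86.30, above the 6 sham hearts at 35.07 to 50.23.

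The copper route of complex IV holds 6 of the members. Cox17 passes copper to Sco1 and Sco2, which load the copper site of subunit Cox2, and to Cox11, which loads that of subunit Cox1, with Cox19 and Coa6 as partners. All 6 were higher in DMSO+AB by sign, with a median log2 fold change of 0.18, and all 6 were still higher without DMSO+Sham 3, with a median of 0.06. Apart from Cox19 none had an unadjusted p under 0.05, and their log2 fold changes were 0.21 for Sco1, 0.18 for Sco2, 0.18 for Cox11, 0.10 for Coa6 and 0.06 for Cox17. Without DMSO+Sham 3 these became 0.07, 0.01, 0.08, 0.01 and 0.06. Sco1 was in turn called higher in DMSO+AB without DMSO+Sham 2, the heart with its highest value (6.74 FPKM).

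Coa3 and Cox14 hold newly made subunit Cox1 at the start of complex IV assembly. Coa3 had 86.92, 98.80 and 66.98 FPKM in DMSO+Sham, 87.68, 93.76 and 88.56 in Hispidulin+Sham, 92.61, 123.02 and 124.50 in DMSO+AB, and 101.81, 109.88 and 89.01 in Hispidulin+AB. DMSO+AB 2 and 3 were the highest of the 12, while DMSO+AB 1 lay within the DMSO+Sham values. The log2 fold change of 0.43 (95% interval 0.10 to 0.76, 1.35-fold) did not pass (limma adjusted p = 0.132), and it was 0.28 without DMSO+Sham 3. With single hearts left out it ran from 0.28 to 0.57, and Coa3 was called without DMSO+AB 1 (limma adjusted p = 0.041) and without DMSO+Sham 2 (limma adjusted p = 0.0488). Cox14 did not overlap between these groups, with 141.92, 159.06 and 153.19 in DMSO+AB above 135.43, 141.74 and 117.75 in DMSO+Sham, but its lowest banded heart exceeded the highest sham heart by only a fraction of the spread (log2 fold change 0.20, 95% interval -0.02 to 0.43, and 0.13 without DMSO+Sham 3).

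The other complex IV factors had no unadjusted p under 0.05. The heme A enzymes Cox10 and Cox15 had log2 fold changes of 0.02 and -0.05, and Surf1, which helps to place heme A in Cox1, had -0.04. Without DMSO+Sham 3 these were -0.21, -0.11 and 0.02. Of the factors for subunit Cox2, Cox16 had -0.24, Cox18, which helps to insert it into the membrane, had 0.04, and its chaperone Cox20 had -0.05, and without DMSO+Sham 3 these were -0.21, 0.09 and -0.10. Coa5 had 0.26 and Coa7 had 0.09, and without DMSO+Sham 3 they had 0.05 and -0.06. Over the 16 complex IV factors, 12 were higher and 4 lower with a median of 0.10, and without DMSO+Sham 3 the counts were 11 and 5 with a median of 0.04.

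In complex III, Uqcc3 had the largest difference. It stabilizes newly made cytochrome b together with Uqcc1 and Uqcc2. Its FPKM was 38.73, 37.40 and 38.39 in DMSO+Sham, 43.05, 38.13 and 32.72 in Hispidulin+Sham, 38.84, 59.40 and 54.72 in DMSO+AB, and 47.08, 50.27 and 44.47 in Hispidulin+AB. The DMSO+Sham hearts were close together and lay below all 3 DMSO+AB hearts, the lowest of which exceeded them only slightly. The log2 fold change was 0.39 (95% interval 0.07 to 0.71, 1.31-fold), which did not pass (limma adjusted p = 0.16), and it was again 0.39 without DMSO+Sham 3. With single hearts left out it ran from 0.27 to 0.57, and Uqcc3 was called without DMSO+AB 1 (limma adjusted p = 0.0159).

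The remaining complex III factors had no unadjusted p under 0.05. Uqcc2, the second most abundant member, had 227.54, 234.45 and 210.24 FPKM in DMSO+Sham, 252.14, 231.54 and 223.71 in Hispidulin+Sham, 228.16, 235.50 and 237.93 in DMSO+AB, and 257.52, 237.06 and 215.53 in Hispidulin+AB. Lyrm7, which guards the Rieske iron-sulfur protein before its insertion, had 9.11, 11.06 and 5.92, then 8.67, 11.21 and 7.87, then 9.88, 9.23 and 10.58, and 8.31, 9.03 and 9.79 in the same order of groups. Both genes overlapped between all groups, and DMSO+Sham 3 was their lowest heart. The log2 fold change of Lyrm7 was 0.20 with DMSO+Sham 3 and -0.02 without it. Uqcc1 went from 0.01 to -0.25 in the same way, and the Rieske translocase Bcs1l from 0.06 to -0.07, while Ttc19, which clears fragments of the Rieske protein, had -0.10 with it and -0.16 without it. With all hearts 5 of the 6 factors were higher, and without DMSO+Sham 3 only 2 were.

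Complex I factors were divided. Of the 14, 7 were higher and 7 lower in DMSO+AB, with a median log2 fold change of -0.02, and the split was 5 and 9 without DMSO+Sham 3. The largest difference was that of Tmem126b, a membrane protein of the MCIA complex, which builds the membrane arm of complex I. Its FPKM was 18.48, 19.10 and 17.30 in DMSO+Sham, 18.81, 15.71 and 18.93 in Hispidulin+Sham, 13.82, 17.18 and 12.18 in DMSO+AB, and 15.72, 18.02 and 17.63 in Hispidulin+AB. All 3 DMSO+AB hearts lay below all 3 DMSO+Sham hearts, DMSO+AB 2 by a small margin. The log2 fold change of -0.34 (95% interval -0.61 to -0.06) did not pass (limma adjusted p = 0.155), it was -0.38 without DMSO+Sham 3, and it ran from -0.46 to -0.23 with single hearts left out.

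The other MCIA members were Acad9 at -0.18, Ecsit at -0.10 and Ndufaf1 at 0.09, so 3 of 4 were lower, and all 4 without DMSO+Sham 3, when Ndufaf1 had -0.03. Acad9, an acyl-CoA dehydrogenase relative with a second role in assembly, did not overlap between the groups, at 14.71, 14.25 and 13.01 FPKM in DMSO+AB against 14.72, 16.81 and 16.42 in DMSO+Sham. Its closest hearts differed only in the last printed digit. Ecsit, which also serves as an adaptor in innate immune signalling, had the highest level of the complex I factors, with 72.31, 73.78 and 67.85 FPKM in DMSO+Sham, 76.08, 72.14 and 71.64 in Hispidulin+Sham, 67.79, 57.84 and 74.29 in DMSO+AB, and 65.17, 70.30 and 66.82 in Hispidulin+AB. Both extremes of its DMSO+AB values lay outside the DMSO+Sham range.

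Nubpl, which delivers iron-sulfur clusters to complex I, had the lowest level of the complex I factors. Its FPKM was 12.18, 13.15 and 13.83 in DMSO+Sham, 10.61, 11.37 and 12.46 in Hispidulin+Sham, 11.45, 11.85 and 11.37 in DMSO+AB, and 12.47, 11.63 and 11.70 in Hispidulin+AB. DMSO+AB lay below DMSO+Sham without overlap, and so did 2 of the 3 Hispidulin+Sham hearts (log2 fold change for banding -0.16, 95% interval -0.36 to 0.04). Among the rest, Timmdc1, which anchors the early arm in the membrane, had 0.23 (0.11 without DMSO+Sham 3). Of the factors of the early peripheral arm, Ndufaf6 had 0.21, Ndufaf3 had 0.08 and Ndufaf4 had -0.12, which became 0.09, 0.04 and -0.21 without that heart. Of the enzymes that modify subunits, Ndufaf5, which hydroxylates Ndufs7, had 0.08 and its partner Ndufaf8 had 0.18, while Ndufaf7 had -0.21. Without it these were 0.00, 0.08 and -0.18. The late factors Ndufaf2 and Foxred1 had 0.03 and -0.06.

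All 4 factors of complex II were higher and all 3 of complex V lower by sign, with no unadjusted p under 0.05. In complex II, Sdhaf4, which protects flavinylated Sdha, had 40.85, 49.86 and 24.24 FPKM in DMSO+Sham, 43.67, 55.57 and 45.57 in Hispidulin+Sham, 42.33, 49.76 and 48.97 in DMSO+AB, and 49.02, 48.77 and 41.46 in Hispidulin+AB. The heart DMSO+Sham 3 lay far below the other 11, and the log2 fold change was 0.34 with it and 0.05 without it. With single hearts left out the log2 fold change of Sdhaf4 ran from 0.05 to 0.56. Sdhaf2, which aids the flavinylation of Sdha, had 20.88, 21.10 and 16.55 in DMSO+Sham below 21.81, 23.54 and 21.92 in DMSO+AB (log2 fold change 0.20, and 0.09 without DMSO+Sham 3). The iron-sulfur factors Sdhaf3 and Sdhaf1 had 0.11 and 0.07, or 0.21 and 0.00 without it.

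Sdhaf3 was the least abundant complex II factor, with 9.14, 11.12 and 12.68 FPKM in DMSO+Sham, 9.83, 12.04 and 15.34 in Hispidulin+Sham, 12.78, 12.40 and 10.33 in DMSO+AB, and 10.51, 12.13 and 11.87 in Hispidulin+AB. Its groups overlapped throughout. In complex V, Tmem70, which aids assembly of the membrane ring of c subunits, had 54.92, 69.60 and 55.26, then 53.99, 64.63 and 67.87, then 57.46, 54.96 and 49.57, and 55.25, 54.89 and 47.51 in the same order. Its log2 fold change was -0.14, and the F1 chaperones Atpaf1 and Atpaf2 had -0.06 and -0.04. Without DMSO+Sham 3 the 3 values were -0.19, -0.11 and -0.19. That of Tmem70 ran from -0.20 to -0.03 with single hearts left out. Atpaf2 had 21.27, 23.51 and 16.35, then 19.12, 20.45 and 19.33, then 19.64, 16.31 and 23.27, and 19.44, 19.76 and 20.26, with overlap between all groups.

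Groups that did not overlap were about as common among the members as among all genes. For 4 members (Cox19, Uqcc3, Cox14 and Sdhaf2) every DMSO+AB heart lay above every DMSO+Sham heart, where 7.18% of all genes did. For 3 members (Tmem126b, Acad9 and Nubpl) every DMSO+AB heart lay below, where 10.8% of all genes did.

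**Figure D4:**
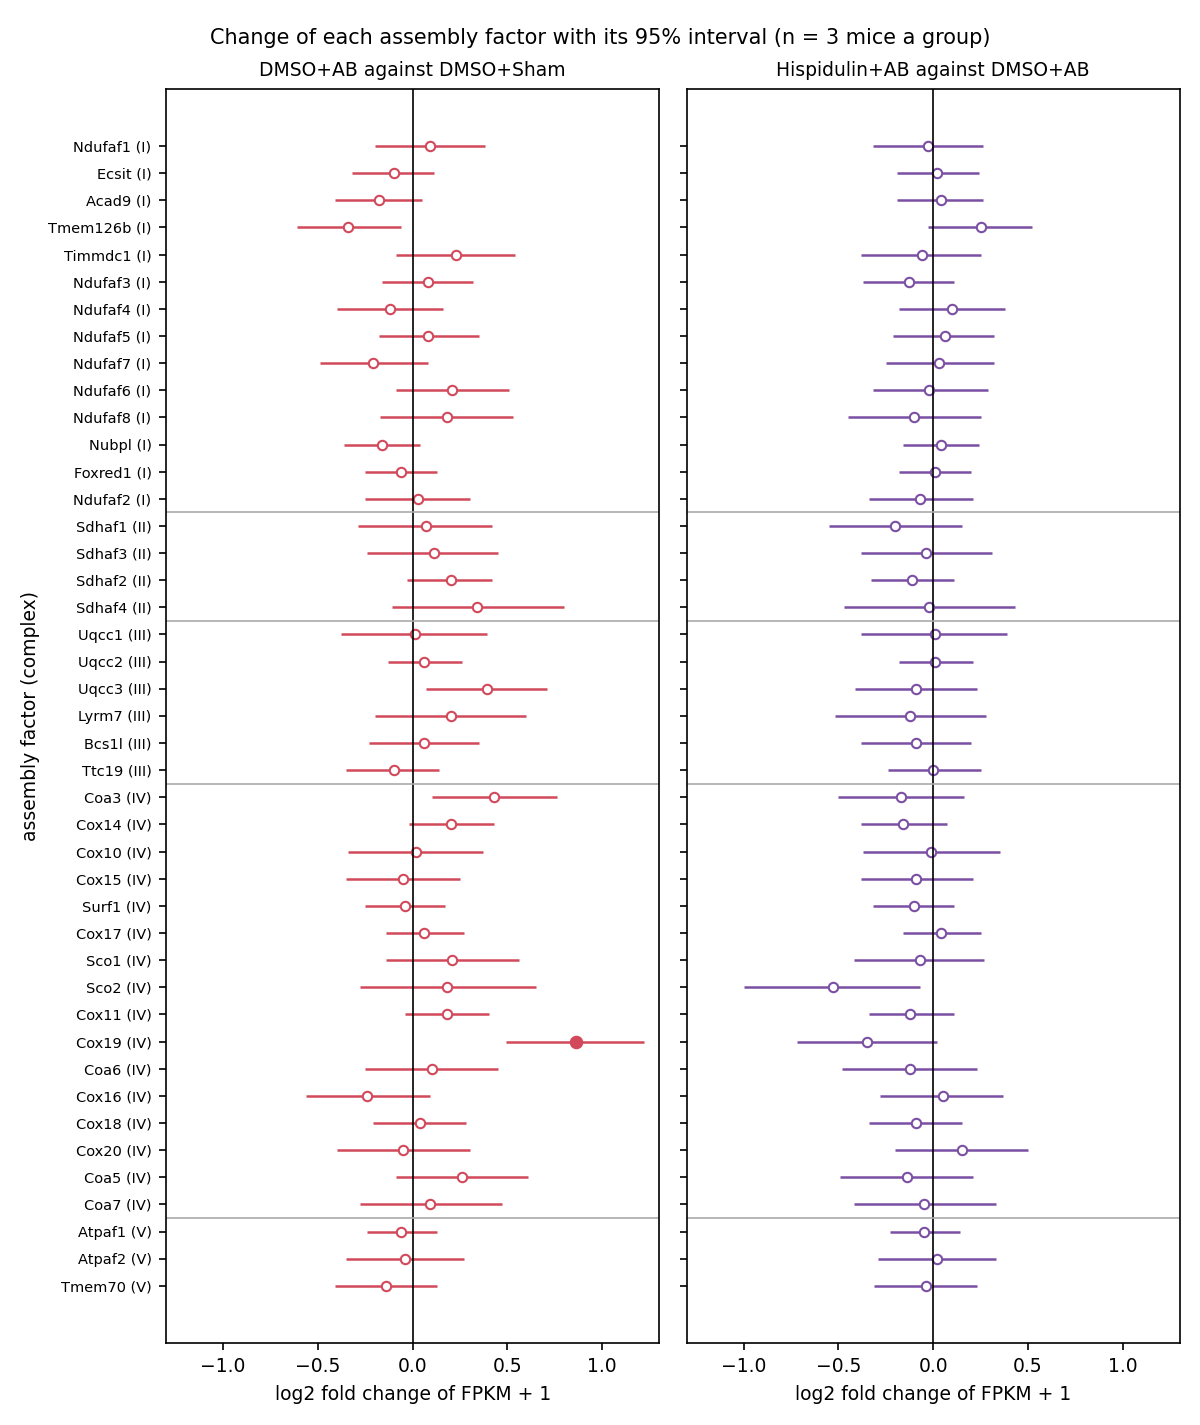
Log2 fold change of FPKM + 1 with its 95% interval for each of the 43 assembly factors, grouped by complex (in parentheses), for DMSO+AB against DMSO+Sham on the left and Hispidulin+AB against DMSO+AB on the right, with 3 hearts a group. The filled point marks the factor with an adjusted p under 0.05, Cox19 at 0.86, and open points mark the others.

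The subunits that these factors assemble were mostly lower. In DMSO+AB against DMSO+Sham, 65 of 82 nuclear-encoded subunits were lower and 17 higher, with a median log2 fold change of -0.14. By the test 3 of the 82 fell, where 2.71% of all genes were called lower. The unadjusted p was under 0.05 for 18 lower subunits, where 11.1% of all genes were lower in this way. For 35 subunits every DMSO+AB heart lay below every DMSO+Sham heart, beside the 10.8% of all genes given above. With DMSO+Sham 3 left out, 75 subunits were lower and 7 higher, with a median of -0.18. Of the 8 cardiomyocyte genes 6 were also lower, with a median of -0.20, and 1 of them, the calcium release channel gene Ryr2, fell by the test (log2 fold change -0.59), and the part of this in the subunit result was not tested. Each complex had more lower than higher subunits, with medians of -0.09, -0.21, -0.13, -0.17 and -0.15 for complexes I to V beside -0.02, 0.15, 0.06, 0.10 and -0.06 for their factors. The subunit medians without that heart were -0.11, -0.28, -0.17, -0.21 and -0.18 beside -0.06, 0.07, -0.04, 0.04 and -0.19 for the factors, so the factor median of complex III changed sign and that of complex V lay just below its subunits. The difference between the lists was not tested. Of 22 tested members of a list of further assembly factors, 11 were higher and 11 lower with none called, from -0.48 for Lrpprc, which stabilizes mitochondrial mRNAs, to 0.40 for Fdx2, a ferredoxin of iron-sulfur synthesis. Of 11 genes of iron-sulfur cluster synthesis, 6 were higher and 5 lower with none called. Of 12 regulators of mitochondrial biogenesis, 2 were higher and 10 lower with none called, with a median of -0.15. The higher and lower genes of these 3 lists numbered 8 and 14, 4 and 7, and 2 and 10 without DMSO+Sham 3.

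None of the 43 factors differed by the test between Hispidulin+AB and DMSO+AB, and none (0%) of all 11664 genes passed limma's adjusted p of 0.05. Of all genes 3.1% had an unadjusted p under 0.05, as did 1 member, Sco2. Relative to DMSO+AB, 28 factors were lower and 15 higher, with a median log2 fold change of -0.05 (0.00 over all genes), while 67 of 82 subunits were higher with a median of 0.09. Without Hispidulin+AB 3 the factors were split into 23 lower and 20 higher, with a median of -0.01, and 76 subunits were higher, with a median of 0.15. In the same comparison 6 of 8 cardiomyocyte genes were higher (median 0.16) and 7 of 8 fibroblast genes lower (median -0.34), and the part of this in the subunit result was not tested. Within the hearts whose label number begins with 5 the median was -0.15 (1 heart against 1, Hispidulin+AB 3 against DMSO+AB 3). Within those beginning with 6 it was 0.00 (2 against 2), so this split also sets Hispidulin+AB 3 apart. For 36 of the 43 factors the 95% interval lay within 0.5 on either side of 0.

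Sco2 carries copper to subunit Cox2. It had 15.43, 13.73 and 9.84 FPKM in DMSO+Sham, 12.23, 11.76 and 8.43 in Hispidulin+Sham, 12.63, 14.78 and 16.90 in DMSO+AB, and 9.77, 13.13 and 7.37 in Hispidulin+AB. Its groups overlapped, since Hispidulin+AB 2 exceeded DMSO+AB 1, and the 3 lowest hearts were all treated with hispidulin. The log2 fold change was -0.53 (95% interval -1.0 to -0.07, limma adjusted p = 0.996), and it was -0.35 without Hispidulin+AB 3, the lowest heart. Within the hearts numbered from 5 the difference was -1.1 (1 heart against 1), and within those numbered from 6 it was -0.25 (2 against 2). The gene shares its locus with Ncaph2 and Tymp in RefSeq, and without a statement that reads were counted by strand their reads cannot be told apart.

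Cox19 had a mean of 57.4 ± 2.28 (SD, n = 3) in Hispidulin+AB beside 74.8 in DMSO+AB. The log2 fold change was -0.35 with a 95% interval of -0.72 to 0.02, which includes both no difference and a fall larger than the estimate. DMSO+AB 1 lay within the Hispidulin+AB hearts. The other copper factors had -0.12 for Cox11, -0.12 for Coa6, -0.07 for Sco1 and 0.04 for Cox17, so 5 of 6 were lower. Without Hispidulin+AB 3 these were -0.10, -0.01, -0.07 and 0.12, and 5 of 6 were again lower. Tmem126b had 0.25 (95% interval -0.03 to 0.52), the highest of the 43, but it ran from 0.14 to 0.37 when single hearts were left out and was 0.13 with library quality weights. Coa3 and Cox14 had -0.17 and -0.16, or -0.09 and -0.07 without Hispidulin+AB 3.

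Of the complex II factors all 4 were lower, led by Sdhaf1 at -0.20, with 21.28, 28.67 and 28.04 FPKM in DMSO+AB and 23.68, 26.76 and 17.46 in Hispidulin+AB, beside 23.72, 27.89 and 22.38 in DMSO+Sham and 22.67, 25.93 and 21.98 in Hispidulin+Sham. Hispidulin+AB 3 was the lowest of the 12 for this gene and the groups overlapped. Its log2 fold change ran from -0.33 to -0.03 when single hearts were left out, and -0.03 was the value without Hispidulin+AB 3. Without that heart 3 of the 4 complex II factors were lower, and Sdhaf4 went from -0.02 to 0.06. Sdhaf2 was the one member with all 3 Hispidulin+AB hearts (19.75, 21.56 and 20.78) below all 3 DMSO+AB hearts, where 3.65% of all genes were, and no member lay above in this way, where 4.23% were. Sdhaf2 had a log2 fold change of -0.11. Complex I factors were at a median of 0.02 (8 higher, 6 lower), complex III at -0.04 (3 and 3), complex IV at -0.10 (3 and 13) and complex V at -0.04 (1 and 2). Without Hispidulin+AB 3 complex I was at 0.04 (11 higher, 3 lower), complex III at -0.04 (2 and 4), complex IV at -0.06 (4 and 12) and complex V at 0.00 (2 and 1).

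**Figure D5:**
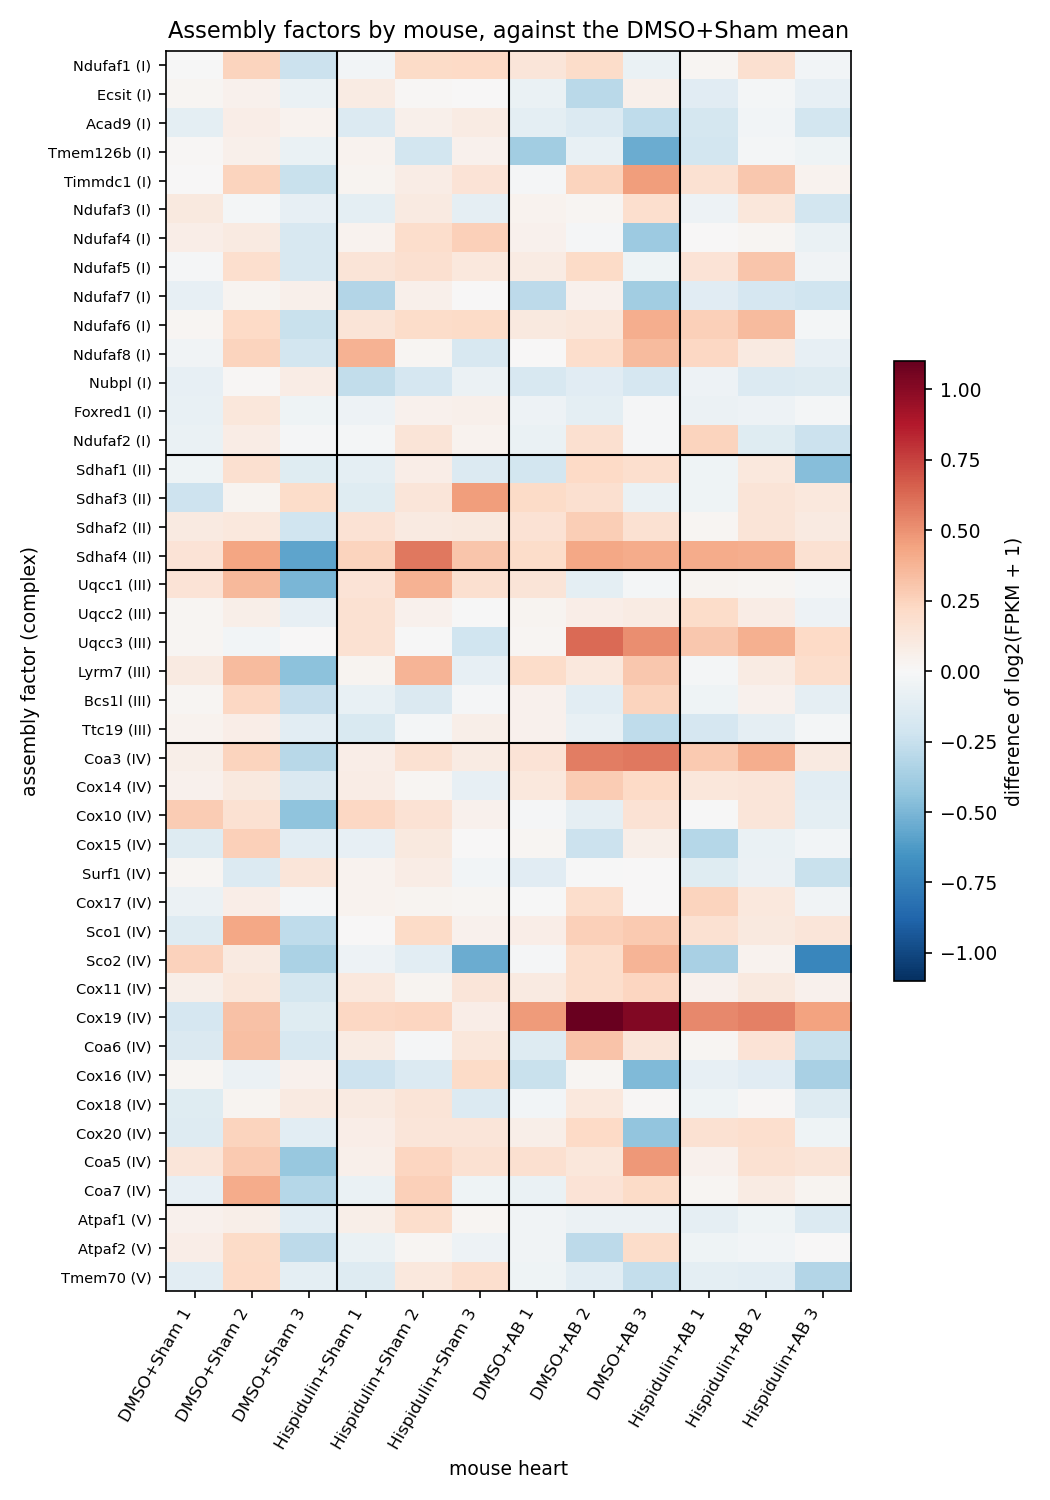
Difference of log2(FPKM + 1) from the DMSO+Sham mean for each assembly factor (rows, complex in parentheses) in each of the 12 hearts (columns), red for higher and blue for lower. Cox19 is red in all 6 banded hearts, and the column of DMSO+Sham 3 is blue for most rows.

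No factor differed by the test between Hispidulin+Sham and DMSO+Sham, and no gene at all passed limma's adjusted p of 0.05 (0%). No member had an unadjusted p under 0.05, where 2.46% of all genes did. By sign 32 factors were higher and 11 lower in Hispidulin+Sham, with a median of 0.05, but without DMSO+Sham 3 the split was 18 and 25 with a median of -0.02. In complex IV the change was from 14 higher of 16 to 5 of 16. The direction in this comparison thus rested on that heart. The log2 fold changes reached from -0.24 for Sco2 to 0.38 for Sdhaf4, and these 2 had -0.41 and 0.09 without DMSO+Sham 3.

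No factor differed by the test between Hispidulin+AB and Hispidulin+Sham, and again 0% of all genes passed. The unadjusted p was under 0.05 for 7.26% of all genes and for 1 member, Atpaf1, which chaperones the beta subunits of the F1 part of complex V. It had 49.07, 49.62 and 43.51 FPKM in DMSO+Sham, 49.58, 54.11 and 47.97 in Hispidulin+Sham, 46.08, 45.31 and 45.13 in DMSO+AB, and 44.10, 45.71 and 42.43 in Hispidulin+AB. The 3 Hispidulin+AB hearts lay below the 3 Hispidulin+Sham hearts (log2 fold change -0.19, 95% interval -0.38 to 0.00, limma adjusted p = 0.676). Cox19 and Uqcc3 also did not overlap between these groups and were higher after banding, with log2 fold changes of 0.33 (95% interval -0.03 to 0.70) and 0.32 (95% interval 0.00 to 0.64). In all, 2 members lay above and 5 below without overlap (Ecsit, Ndufaf4, Uqcc1, Surf1 and Atpaf1), where 9.14% and 11.8% of all genes did. Of the 43 factors 13 were higher and 30 lower, with a median of -0.05. Without Hispidulin+AB 3 the split was 21 and 22, with a median of 0.00. In the same comparison all 4 erythroid genes were lower (median -0.84) and all 8 fibroblast genes higher (median 0.38), and the part of this in the split was not tested. Without Hispidulin+Sham 3, where the erythroid sum was highest, the median of the factors was -0.04.

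Whether banding acted differently with and without hispidulin was tested by the interaction. No factor and 0% of all genes passed, and 2.48% of all genes had an unadjusted p under 0.05. The one such member was Cox19, whose log2 fold change on banding was 0.86 with DMSO and 0.33 with hispidulin (interaction -0.53, 95% interval -1.04 to -0.01, limma adjusted p = 1). The interaction was negative for 34 factors and positive for 9, with a median of -0.12, where all genes had a median of 0.02 (6231 positive, 5433 negative). It shares the DMSO+Sham hearts with the comparisons above. Without DMSO+Sham 3 it was negative for 25 factors and positive for 18, with a median of -0.03, and for Cox19 it was then -0.46. Without Hispidulin+AB 3 the split was 30 and 13, with a median of -0.08. The interaction was also negative for all 8 fibroblast genes (median -0.89) and all 4 erythroid genes (median -1.04), and it was positive for 61 of the 82 subunits (median 0.05). The part of the cell type markers in the factor result was not tested.

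The labels give each heart a number that begins with 5 or 6, except for DMSO+Sham 1, and what that digit stands for is not stated. Within the hearts numbered from 5, the log2 difference of Cox19 between DMSO+AB and DMSO+Sham was 0.70 (1 heart against 1), and within those numbered from 6 it was 0.91 (2 against 1). For Uqcc3 these differences were 0.54 and 0.32, for Coa3 they were 0.33 and 0.66, and for Tmem126b they were -0.61 and -0.16. The median over the 43 factors was -0.06 in the first set and 0.22 in the second, where DMSO+Sham 3 was the only sham heart. With the digit as a term in the model, the log2 fold change of Cox19 was 0.79 and it was no longer called (limma adjusted p = 0.0576). DMSO+Sham 1 shares its digit with no other heart, so the term in effect also took that heart out of the comparison. Leaving out DMSO+Sham 1 alone lost the call as well, so the part of the digit cannot be told apart from that of this heart.

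In RefSeq's annotation 10 of the 43 genes overlap another protein-coding gene that has a row in the table, among them Sco2, Surf1 with Surf2, Ttc19 with Ncor1 and Cox20 with Hnrnpu, and their levels are less certain for that reason. Cox19, Coa3, Uqcc3 and Tmem126b do not.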

How the data were processed

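Polyadenylated RNA from left ventricular muscle was sequenced by the study as single reads of 50 bases. The authors deposited 1 table of FPKM values, rounded to 0.01, for 18079 genes named by NCBI Gene ID in 12 libraries, and the submitters' processing notes name HISAT2 2.0.4, Bowtie2 2.2.5 and RSEM 1.2.12. The genome build and the strand setting are not given in the sources used here. Symbols came from RefSeq (GRCm38.p6, 99.3% of IDs matched). FPKM columns summed to 535235 to 567027. Low values were not whole multiples of a step (18.5% of 16579 ratios lay within 0.1 of a whole number, where 20% would by even spread), so depth is unknown and no count test was run. Values were analysed as log2(FPKM + 1), for genes with at least 1 FPKM in at least 3 libraries (11664), with limma 3.58.1 in R 4.3.3. The fit had one mean per group over all 12 libraries, 8 error degrees of freedom and an empirical Bayes trend, with Benjamini-Hochberg adjustment over all genes tested. The added 1 understates the change of low genes. Each group held 3 hearts, so the p-values measure the spread between these hearts. Steps were tested on simulated data. The 43 members, the marker and pathway lists, the motifs and the rule for naming genes were chosen with earlier results of these data known. Members were printed heart by heart where they had an adjusted or unadjusted p under 0.05 in any comparison, the largest fold change of their complex in the first or second comparison, or the highest or lowest mean of their complex. Acad9, Cox14 and Sdhaf2 were added after their values were seen, because their groups did not overlap.

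The replicate numbers of the labels belong to different mice. The residuals of same-numbered hearts correlated at -0.20 to -0.02 between DMSO+AB and DMSO+Sham, at -0.18 to 0.30 between Hispidulin+AB and DMSO+AB, at 0.13 to 0.33 between Hispidulin+Sham and DMSO+Sham and at 0.15 to 0.23 between Hispidulin+AB and Hispidulin+Sham, so only in the last 2 of these did every same-numbered pair deviate together. The alternatives tried were 0.1 as the added value, no filter or at least 5 FPKM, median-of-ratios scaling, no trend, library quality weights, the replicate number or the label digit as a term, only the libraries compared, and each heart left out in turn. Promoter motifs were read from RefSeq windows with Python 3.11.15.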

Additional observations from a re-analysis of the deposited data

How the results depend on the processing

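The count of assembly factors called in DMSO+AB against DMSO+Sham was 1 in the reported fit, and Cox19 was that factor. The count was 0 with the first digit of the label number as a term, which in effect also leaves out DMSO+Sham 1, the only heart with its digit. The count was 0 when only the 6 compared libraries were fitted, a fit with fewer libraries to estimate the spread (Cox19 limma adjusted p = 0.16). Leaving out 1 heart at a time gave a count of 0 to 3. It was 0 without DMSO+Sham 1, DMSO+AB 2 or DMSO+AB 3, 3 without DMSO+Sham 2 (Coa3, Cox19 and Sco1) and 3 without DMSO+AB 1 (Coa3, Cox19 and Uqcc3). The cause of these changes was not tested. Over all 15 alternatives the log2 fold change of Cox19 kept its sign, at 0.74 to 1.06, with a limma adjusted p of 0.00173 to 0.16. Over all genes the count of calls was 608 in the reported fit, 383 without the filter, 142 with the label digit, 11 with only the compared libraries and 1423 with library quality weights. In the other 4 comparisons no factor was called under any alternative. With single hearts left out, the median log2 fold change of the factors ran from 0.00 to 0.12 in DMSO+AB against DMSO+Sham, -0.07 to -0.01 in Hispidulin+AB against DMSO+AB, -0.02 to 0.13 in Hispidulin+Sham against DMSO+Sham, where its sign changed without DMSO+Sham 3, and -0.07 to 0.00 in Hispidulin+AB against Hispidulin+Sham. The median of the interaction went from -0.12 to -0.03 without DMSO+Sham 3. With the replicate number as a replicate block, 1 factor, Cox19, was called in DMSO+AB against DMSO+Sham (limma adjusted p = 0.0139) and 0 in the others. The block thus changed no call among the factors, while the calls over all genes in that comparison went from 608 to 640. Scaling moved the median of all genes by at most 0.02. Without a known depth, counting error cannot be stated.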
